A study of Mus musculus with 9 samples.

Results

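The insulin-like growth factor (IGF) axis was followed in the enamel organ of the mouse first molar through 10 genes, chosen by their roles and matched in the count table by symbol. They are the ligand genes Igf1 and Igf2, the receptor genes Igf1r and Igf2r, and the binding protein genes Igfbp2, Igfbp3, Igfbp4, Igfbp5, Igfbp6 and Igfbp7. The table held 54532 genes, 15909 had enough counts to be tested, and all 10 members were among these. The enamel organ is the epithelial tissue that lays down and mineralizes enamel, and its polyA-selected RNA was sequenced with 1 library per mouse. The 5 ELA pups (early life adversity) were raised in cages with limited bedding and nesting material between postnatal days 2 and 12, and the 4 control pups were raised without this limitation. All 9 were male offspring of Crh-IRES-Cre dams and Ai14 tdTomato sires on a C57BL/6 background, collected at postnatal day 12. Both groups therefore carried the Cre driver and the reporter, and no animal without these alleles was compared. As a group the ELA pups were lighter, at 5.3 ± 0.4 g against 5.9 ± 0.4 g in controls (kind of error not stated). The paper left its lightest ELA mice out of later analyses to limit effects of weight. Bedding and weight thus differed together between the groups. Weights of single mice were not available, so the part of weight in any level was not tested. The mice are named here by their titles, in which t marks ELA and c marks control. The titles open with t-205 or t-203 in ELA and with c-204 or c-202 in controls, and what these openings stand for is not stated in the labels.

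IGF-1 and IGF-2 are secreted peptides that act through the IGF-1 receptor, a tyrosine kinase related to the insulin receptor, to drive growth, survival and differentiation. The IGF-2 receptor, which is also the cation-independent mannose 6-phosphate receptor, takes IGF-2 up for breakdown in lysosomes and does not signal like a tyrosine kinase. IGF binding proteins hold the ligands outside the cell, lengthen their life and release them when proteases cut the binding protein. In teeth, IGF ligands and receptors are made by dental epithelium and mesenchyme and have been tied to ameloblast differentiation and enamel matrix production.

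The 5 ELA libraries held 18056774 to 32110160 counts each, against 18683431 to 20831736 in the 4 control libraries. Levels are given as CPM (the usual counts-per-library unit that divides out depth, here with library sizes scaled by TMM, a normalization that balances the bulk of genes between libraries), and differences as log2 fold changes of ELA over control. Across all genes, 10 passed an adjusted p of 0.05 (Benjamini-Hochberg, over all genes tested) in edgeR, 6 higher and 4 lower in ELA, which is 0.0629% of those tested, and the median log2 fold change was 0.01. The 4 secretory ameloblast markers (Amelx, Ambn, Enam and Mmp20) summed to 71274 to 129847 CPM in ELA and 50292 to 64506 CPM in controls, so the libraries carried the defining transcripts of the labelled tissue. All 17 markers of dental mesenchyme and fibroblasts were also detected, at a summed 12698 to 24463 CPM in ELA and 16594 to 32189 CPM in controls. These are bulk samples, so fewer cells of a type and less RNA per cell cannot be told apart.

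None of the 10 members passed the adjusted p in edgeR (0 of 10, beside 0.0629% of all genes), in limma-voom or in DESeq2, where 0.718% of the genes with an adjusted p passed. At an unadjusted p below 0.05, the transcripts of Igf2, Igfbp2 and Igfbp3 were higher in ELA by 1.61, 1.44 and 1.25 fold in edgeR. That is 3 of 10 members, beside 3.56% of all genes on this side, and 0 of 10 were lower, beside 2.89%. In Igf2 and Igfbp3 every ELA mouse was above every control mouse with TMM library sizes, 2 of 10 members beside 1.39% of all genes, and in both the groups overlapped with plain library totals. No member had every ELA mouse below every control mouse, beside 1.29%. The other 7 members overlapped between the groups, with unadjusted p between 0.348 and 0.902. The log2 fold changes were positive in 8 members and negative in 2, with a median of 0.09, while 52.6% of all genes tested were positive.

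**Figure D1:**
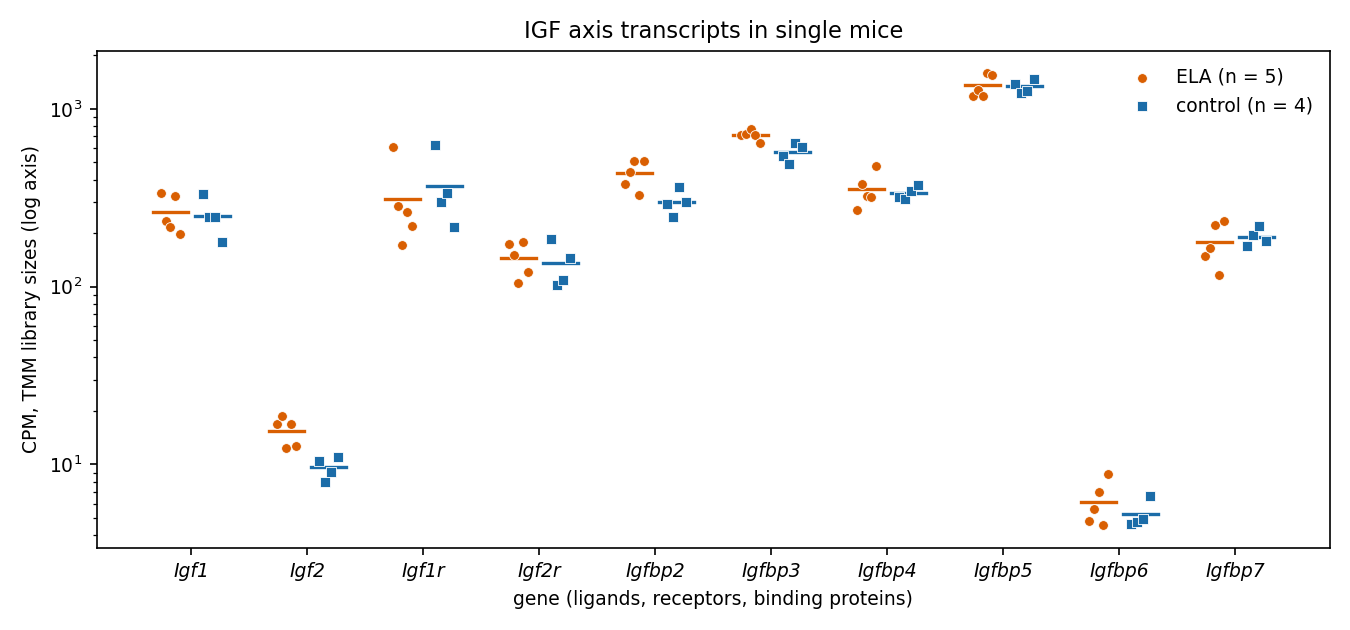
CPM of the 10 members in single mice on a log axis, with ELA mice (circles, n = 5) left of control mice (squares, n = 4) for each gene and a short line at each mean. With these TMM library sizes, unlike with plain totals, the ELA and control points separate in Igf2 and, narrowly, in Igfbp3, and Igf1r has 1 mouse per group far above the others, at 609 CPM in ELA and 623 CPM in controls.

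Igf2, the ligand of prenatal growth and an imprinted gene read from the paternal copy in most tissues, lies on GRCm38 chromosome 7 (142650766 to 142666816, minus strand). Its level was 16.8, 18.8, 12.3, 16.9 and 12.7 CPM in ELA mice t-205-1-1, t-205-1-3, t-203-1-3, t-203-1-4 and t-203-1-5, against 10.5, 7.996, 9.11 and 11.0 CPM in control mice c-204-1-1, c-204-1-2, c-202-1-1 and c-202-1-2. The lowest ELA mouse was above the highest control mouse, and t-205-1-3, t-203-1-4 and t-205-1-1 were the highest. With the counts scaled to plain library totals the groups overlapped, since t-203-1-3 was at 11.6 CPM and c-202-1-2 at 12.2 CPM. Igf2 averaged 15.5 ± 2.86 CPM in ELA (SD, n = 5) and 9.64 ± 1.36 CPM in controls (SD, n = 4), with a log2 fold change of 0.68 (SE 0.18, 95% interval 0.30 to 1.07). The unadjusted p was 0.00234 and the adjusted p over all genes was 0.305 in edgeR. In DESeq2 the adjusted p was 0.0799. A two-sided exact permutation test of log2 CPM over the 126 splits of 9 mice gave 0.0159, the smallest p this design allows, before any adjustment for the 10 members. With plain library totals the exact permutation p was 0.0317.

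These Igf2 levels rest on 237 to 412 raw counts per ELA library and 166 to 229 per control library. Of the 5723 exon bases of Igf2, 3596 (62.8%) are also exon of Gm49394, a gene model on the same strand, for which the table lists 0 counts in all 9 libraries. A counter that discards reads shared by genes would have left only the remaining 2127 bases to Igf2. The sources used here do not give the counting rule, so the absolute level of Igf2 is uncertain, while the shared bases are the same in every library. The antisense gene Igf2os shares 98 exon bases with it.

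Igf1, the ligand whose postnatal expression growth hormone drives, lies on chromosome 10 (87858265 to 87937042, plus strand). Its level was 338, 235, 216, 325 and 197 CPM in the 5 ELA mice, listed in the same order of mice as for Igf2, against 331, 248, 246 and 178 CPM in the 4 control mice. The groups covered nearly the same range. The log2 fold change was 0.07 (95% interval -0.40 to 0.53, unadjusted p = 0.765, edgeR). These data therefore bound a difference in Igf1 only to between 0.758 and 1.44 fold. Within each library, the FPKM of Igf2 (CPM divided by the exon length in kilobases, a level per length) was 0.105 ± 0.0212 of the FPKM of Igf1 in ELA (SD, n = 5) and 0.0704 ± 0.0246 in controls (SD, n = 4). The ranges of this ratio overlapped, at 0.0859 to 0.139 in ELA and 0.0549 to 0.107 in controls. The ratio uses all exon bases of Igf2, so its size is as uncertain as the absolute level of Igf2. Over the unshared bases alone it would be higher in both groups.

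The receptor of both ligands, Igf1r, lies on chromosome 7 (67952827 to 68233668, plus strand) and varied more among mice than any other member, with an SD of 0.64 in log2 CPM over the 9 mice. Its level was 609, 285, 173, 262 and 220 CPM in the ELA mice and 623, 298, 337 and 216 CPM in the control mice, in the same order of mice. Mice t-205-1-1 and c-204-1-1 stood far above the rest, and the other 7 were between 173 and 337 CPM. The log2 fold change was -0.25 with a 95% interval of -1.11 to 0.61 (unadjusted p = 0.531, edgeR), the widest interval of the 10 members. It was -0.65 without t-205-1-1. Its sign turned without c-204-1-1, at 0.13, and without the 3 t-203 mice, at 0.27.

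Igf2r, the receptor that clears IGF-2 and an imprinted gene read mainly from the maternal copy, lies on chromosome 17 (12682406 to 12769664, minus strand). Its level was 173, 150, 105, 178 and 121 CPM in the ELA mice and 185, 102, 110 and 144 CPM in the control mice. The groups overlapped almost fully. The log2 fold change was 0.10 (95% interval -0.36 to 0.56, unadjusted p = 0.632, edgeR). The antisense gene Airn shares no exon base with it.

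Among the binding proteins, Igfbp2 differed most between the groups. Igfbp2 codes for a binding protein that prefers IGF-2 and can also bind integrins, and it lies on chromosome 1 (72824503 to 72852474, plus strand). Its level was 377, 442, 510, 329 and 510 CPM in the ELA mice and 293, 245, 366 and 300 CPM in the control mice. With TMM library sizes 4 of the 5 ELA mice were above every control mouse, and t-203-1-4 was below control c-202-1-1. With plain library totals t-205-1-1, at 342.5 CPM, was also below c-202-1-1, at 359 CPM. Igfbp2 averaged 433 ± 80.3 CPM in ELA (SD, n = 5) and 301 ± 49.7 CPM in controls (SD, n = 4), with a log2 fold change of 0.53 (SE 0.17, 95% interval 0.15 to 0.90). The unadjusted p was 0.0105 and the adjusted p was 0.534 in edgeR. The exact permutation p was 0.0317, two-sided and unadjusted. With the counts scaled to plain library totals it was 0.0635.

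Igfbp3, which carries most circulating IGF and binds both ligands, lies on chromosome 11 (7206086 to 7213923, minus strand). Its level was 710, 723, 769, 715 and 646 CPM in the ELA mice and 541, 490, 644 and 611 CPM in the control mice. The groups did not overlap, but the gap was narrow, between t-203-1-5 at 645.6 CPM and c-202-1-1 at 643.8 CPM. With plain library totals c-202-1-2, at 677 CPM, was above t-205-1-1 and t-203-1-5, at 644 and 651 CPM. Igfbp3 averaged 713 ± 44.2 CPM in ELA (SD, n = 5) and 571 ± 69.1 CPM in controls (SD, n = 4), with a log2 fold change of 0.32 (SE 0.13, 95% interval 0.03 to 0.60). The unadjusted p was 0.0321 and the adjusted p was 0.697 in edgeR. The exact permutation p was 0.0159, two-sided and unadjusted, and 0.0635 with plain library totals. Leaving out t-205-1-3, t-203-1-3, c-204-1-1 or c-204-1-2 took the unadjusted p of Igfbp3 above 0.05, up to 0.105. It was also above 0.05 in edgeR without the t-205 mice (0.0757), the t-203 mice (0.115) or the c-204 mice (0.322), and at 0.110 with counts summed over mice whose titles open alike.

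**Figure D2:**
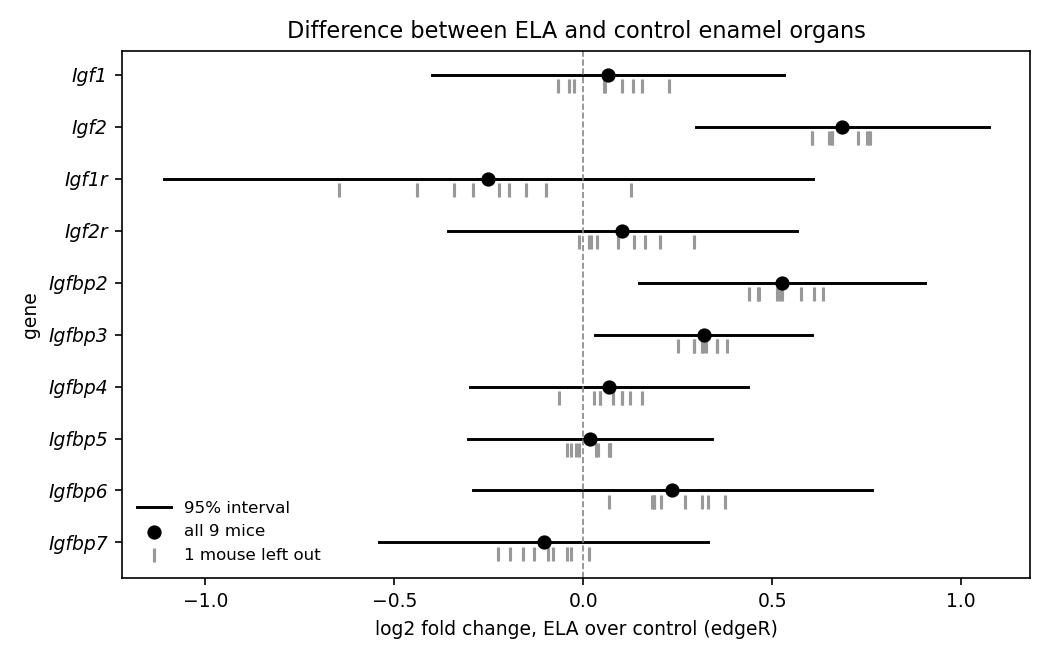
Log2 fold change of each member, ELA over control, from edgeR (points) with its 95% interval (lines), and the value after leaving out each of the 9 mice in turn (grey ticks). The intervals of Igf2 (0.30 to 1.07), Igfbp2 (0.15 to 0.90) and Igfbp3 (0.03 to 0.60) lie above 0, and the other 7 include it.

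The 3 genes with higher levels in ELA have different sequence before their starts. The 250 bases before an annotated start are shown for each, as RefSeq gives them on GRCm38.p6, because these are the members the comparison turns on. Capitals mark the E-box CACGTG, the element that clock and other basic helix-loop-helix factors bind, and the glucocorticoid half-site AGAACA or its reverse complement TGTTCT. For Igfbp2 the window is chr1:72824230-72824479 (plus strand), before the more upstream of its starts in that source. For Igfbp3 it is chr11:7213924-7214173 (minus strand). For Igf2 it is chr7:142666817-142667066 (minus strand), which is before the most upstream of 4 starts.
Igfbp2: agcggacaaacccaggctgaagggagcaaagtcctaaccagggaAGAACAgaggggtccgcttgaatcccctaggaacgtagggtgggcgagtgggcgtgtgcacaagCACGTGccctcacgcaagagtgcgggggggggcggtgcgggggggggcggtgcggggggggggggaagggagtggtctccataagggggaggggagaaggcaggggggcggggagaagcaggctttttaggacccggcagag
Igfbp3: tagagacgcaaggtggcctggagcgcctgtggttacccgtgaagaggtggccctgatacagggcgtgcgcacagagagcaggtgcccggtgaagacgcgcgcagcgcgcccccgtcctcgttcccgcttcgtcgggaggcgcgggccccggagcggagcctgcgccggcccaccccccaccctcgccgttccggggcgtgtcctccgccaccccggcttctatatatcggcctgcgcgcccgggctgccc
Igf2: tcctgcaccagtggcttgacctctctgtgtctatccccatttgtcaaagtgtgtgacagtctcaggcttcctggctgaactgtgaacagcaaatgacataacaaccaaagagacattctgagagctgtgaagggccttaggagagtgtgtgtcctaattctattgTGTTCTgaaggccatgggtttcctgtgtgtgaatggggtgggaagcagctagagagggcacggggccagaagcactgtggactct
Searched on both strands, the Igfbp2 window held 1 E-box at -142 and 1 half-site at -206, counted from the start. The Igf2 window held 1 half-site at -85, and the Igfbp3 window held neither. The windows before the other Igf2 starts and before the other Igfbp2 start also held neither. Which start is used in the enamel organ was not tested. Over the 14 windows of the 10 members, the E-box was in 2, those of Igfbp2 and Igf2r, beside 6.02% of 32851 windows of that length from all genes. The half-site was in 2 member windows beside 16.1% of all windows, and the FOXO motif GTAAACA was in 0 beside 3.17%. The GC content was 67.2% in the Igfbp2 window, 73.2% in the Igfbp3 window and 50.8% in the Igf2 window, against a median of 52.4%. It was 56.4% before the other Igfbp2 start, and 47.6%, 68.8% and 66% before the other Igf2 starts. A match of letters is a description and does not show that a factor binds there.

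Igfbp5, the most conserved binding protein and one bound to bone and tooth matrix, had the highest CPM of all members. It lies on chromosome 1 (72857932 to 72874884, minus strand), 5457 bases beyond the end of Igfbp2 and on the opposite strand. Its level was 1176, 1279, 1181.5, 1586 and 1555 CPM in the ELA mice and 1384, 1236, 1258 and 1475 CPM in the control mice. No separation was seen, and the log2 fold change was 0.02 (95% interval -0.30 to 0.34, unadjusted p = 0.902, edgeR), with a sign that turned under upper-quartile factors, plain library totals and length offsets. Set within each library, the FPKM of Igfbp2 over that of its neighbour was 1.06 ± 0.26 in ELA (SD, n = 5) and 0.735 ± 0.142 in controls (SD, n = 4). This ratio ran between 0.674 and 1.403 in ELA and between 0.644 and 0.946 in controls, so the groups overlapped through t-203-1-4.

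Igfbp4, a binding protein that mainly restrains IGF action, ranged between 269 and 479 CPM in ELA and between 310.0 and 375 CPM in controls. Its log2 fold change was 0.07 (95% interval -0.30 to 0.44, unadjusted p = 0.693, edgeR). Igfbp6, which binds IGF-2 far more tightly than IGF-1, was the scarcest member in CPM, at 4.55 to 8.80 CPM in ELA and 4.64 to 6.66 CPM in controls, from 88 to 285 counts and 88 to 139 counts. Its log2 fold change was 0.24 (95% interval -0.29 to 0.76, unadjusted p = 0.348, edgeR). Igfbp7, a related secreted protein with weak IGF binding that is rich around vessels and in stroma, ranged between 116 and 235 CPM in ELA and between 169 and 219 CPM in controls. Its log2 fold change was -0.10 (95% interval -0.54 to 0.33, unadjusted p = 0.609, edgeR). In Igfbp4 and Igfbp7 the spread was wider among ELA mice, with a coefficient of variation of 22.5% in ELA and 8.51% in controls for Igfbp4, and of 28.2% in ELA and 11.3% in controls for Igfbp7. Igfbp7 shares 85 exon bases (7.03%) with Polr2b on the other strand, whose reads cannot be told apart from it if strand was not used in counting.

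Levels of different genes were compared only per length. In ELA the order of mean FPKM was Igfbp2 (234.7), Igfbp3 (227.7), Igfbp5 (225.7), Igfbp7 (146.8), Igfbp4 (80.2), Igf1 (26.5), Igf1r (18.4), Igf2r (15.6), Igfbp6 (5.53) and Igf2 (2.71). The ranges of the first 3 overlapped among ELA mice, and so did those of Igfbp7 and Igfbp4 and those of Igf1, Igf1r and Igf2r, while the other neighbours in this order were separate. In controls the order was Igfbp5 (222.8), Igfbp3 (182.6), Igfbp2 (163.0), Igfbp7 (157.9), Igfbp4 (76.5), Igf1 (25.3), Igf1r (21.96), Igf2r (14.5), Igfbp6 (4.71) and Igf2 (1.69). Here Igfbp5 was above Igfbp3 with no overlap, Igfbp3, Igfbp2 and Igfbp7 overlapped their neighbours, and Igf1, Igf1r and Igf2r again overlapped. So 5 of the 6 binding protein transcripts exceeded both ligands and both receptors per length in all 9 mice. Over the 2127 exon bases it does not share, Igf2 came to 7.30 ± 1.34 FPKM in ELA (SD, n = 5) and 4.53 ± 0.637 FPKM in controls (SD, n = 4), which would bring it level with or above Igfbp6.

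The 6 binding protein transcripts summed to 921 ± 97.6 FPKM in ELA (SD, n = 5) and 807 ± 65.0 FPKM in controls (SD, n = 4), with ranges of 816 to 1052 and 731 to 877 that overlapped. Igfbp2 made up 25.4 ± 2.61% of this sum in ELA and 20.1 ± 1.90% in controls. Its share ran between 21.1% and 28.1% in ELA and between 18.1% and 22.6% in controls, and only t-203-1-4 fell inside the control range. Igfbp7 made up 15.7 ± 3.01% in ELA and 19.6 ± 2.16% in controls, and Igfbp5 made up 24.7 ± 4.12% in ELA and 27.7 ± 2.60% in controls. Shares of one sum are not independent of each other, and they were not tested.

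**Figure D3:**
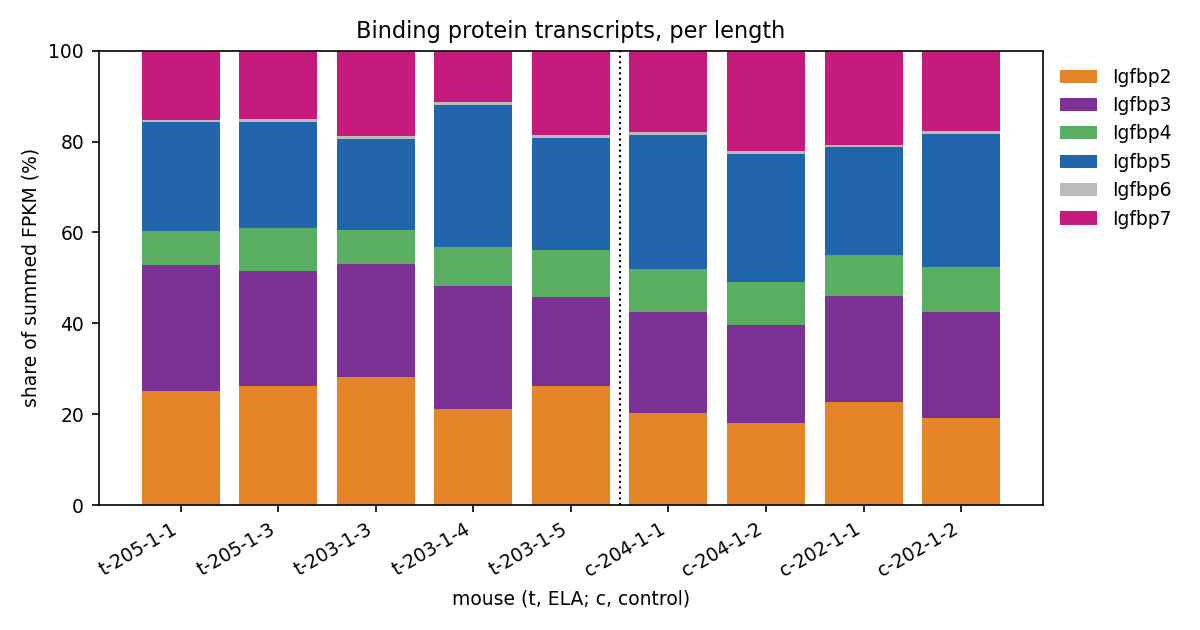
Share of each binding protein transcript in the summed FPKM of the 6 binding proteins, in percent, as a stacked bar for each mouse, with ELA mice left of the dotted line and control mice right of it. Igfbp2 takes 21.1% to 28.1% of the bar in ELA mice and 18.1% to 22.6% in control mice.

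Some members also varied among mice within a group along gene length. For each library the median log2 deviation of genes of at least 8000 bases (2035 genes) minus that of genes under 2000 bases (1133 genes) was 0.48, -0.07, -0.27, 0.63 and -0.57 in the ELA mice and 0.25, -0.30, -0.21 and 0.01 in the control mice. The 3 highest values belonged to t-203-1-4, t-205-1-1 and c-204-1-1. These were also the 3 mice with the highest levels of Igf1 (9904 bases) and Igf2r (9308 bases), at 325 to 338 CPM and 173 to 185 CPM. The short transcripts Igfbp2 (1847 bases) and Igfbp7 (1209 bases) had their lowest ELA levels in t-203-1-4, at 329 CPM and 116 CPM. Not every level followed the measure. The longest member, Igf1r (16791 bases), was highest in c-204-1-1 and t-205-1-1 but at 262 CPM in t-203-1-4. Igfbp2 was lowest of all mice in c-204-1-2, at 245 CPM, where the measure was -0.30. With offsets that follow gene length, a fit added after this pattern was seen, the log2 fold changes were 0.65 for Igf2 (unadjusted p = 0.00199, edgeR), 0.53 for Igfbp2 (unadjusted p = 0.00174, edgeR) and 0.33 for Igfbp3 (unadjusted p = 0.0230, edgeR). Their adjusted p in that fit were 0.224, 0.216 and 0.558. What sets the length measure was not tested.

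**Figure D4:**
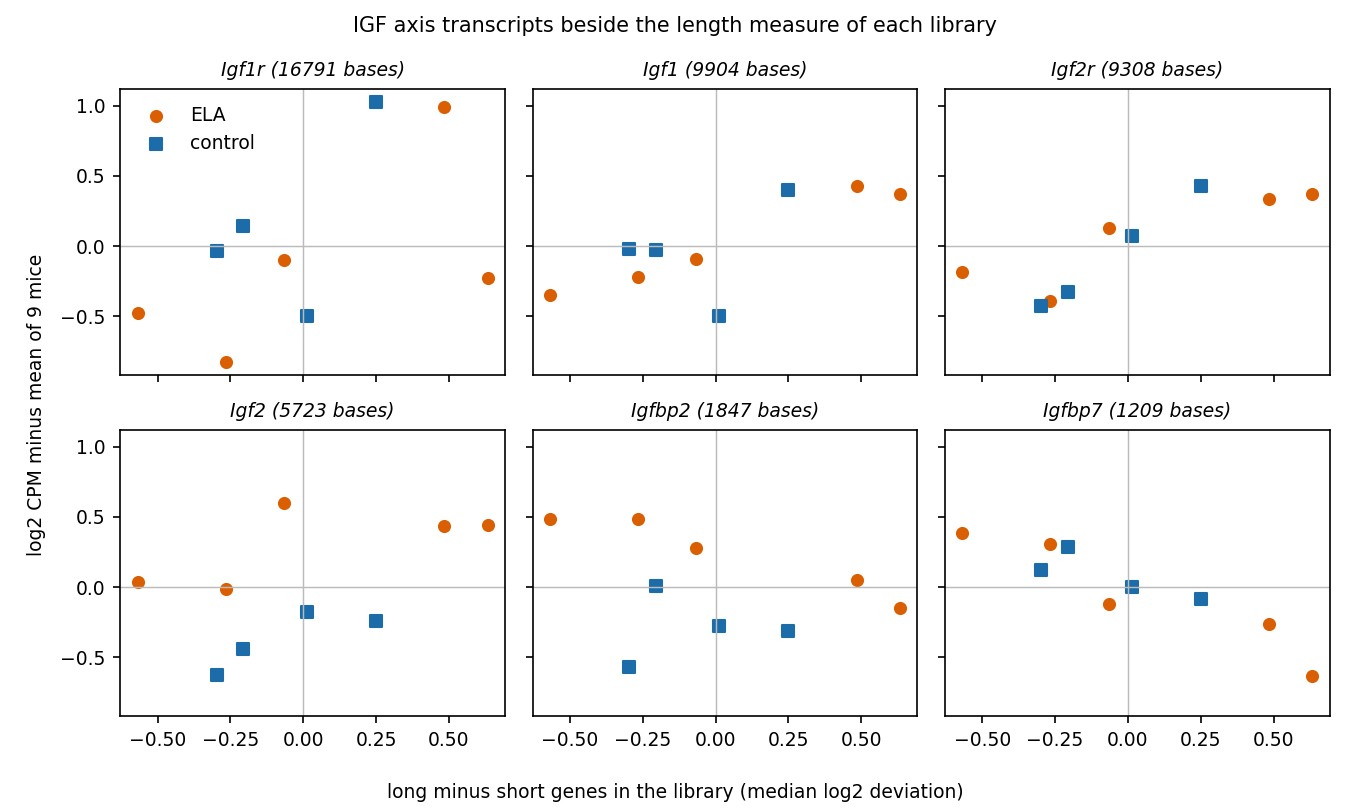
Log2 CPM of 6 members minus their mean over 9 mice, against the long minus short gene measure of the library (median log2 deviation), with ELA mice as circles and control mice as squares. Mice with a high measure lie high in Igf1 and Igf2r and low in Igfbp7, and in Igf2, with TMM library sizes, the ELA points lie above the control points across the measure.

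Levels of 9774 other tested genes with a mean of at least 10 CPM were set against those of the 4 members that varied most over the 9 mice, by the mean absolute difference of centred log2 CPM. Igf1r was most like Fmn1 (0.08), Rabgap1l (0.15) and Suco (0.16), which are all long transcripts of 8928 to 23232 bases. Igf2 was most like Dusp8 (0.12), Gys1 (0.12) and Tsc22d2 (0.13). Dusp8, a phosphatase of MAP kinases, lies on the same chromosome as Igf2, 554922 bases away. It averaged 36.0 ± 3.58 CPM in ELA (SD, n = 5) and 24.3 ± 2.14 CPM in controls (SD, n = 4; adjusted p = 0.154, edgeR). Dusp8 was picked for its likeness to Igf2 over these same mice, so its group difference follows from that choice and adds no separate evidence. Igfbp2 was most like Acot1 (0.09), Cyc1 (0.09) and Clybl (0.11), and Igf2r was most like Pom121, Arhgef11 and Ctdspl (0.06 to 0.07). These values are descriptions over 9 libraries that share the length pattern above.

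Outside the members, 10 genes that set how much IGF is free were listed, and 7 were tested. All but 1 had a negative log2 fold change (median -0.67), and 3 of 7 were lower at an unadjusted p below 0.05, beside 2.89% of all genes. None passed the adjusted p in edgeR or limma-voom. In DESeq2 1 passed it, of 9 listed genes that had an unadjusted p, beside 0.718% of all genes with an adjusted p. That gene, which also passed in edgeR with no filter on low counts (adjusted p = 0.0155), was Htra1, a secreted serine protease that cuts IGF binding proteins and other matrix proteins. Its level was 66.1, 67.1, 41.2, 38.2 and 64.0 CPM in the ELA mice and 129, 103, 113 and 94.4 CPM in the control mice, with every ELA mouse below every control mouse. The log2 fold change of Htra1 was -0.99 (95% interval -1.41 to -0.58), with an adjusted p of 0.110 in edgeR and 0.00100 in DESeq2. Over the 9 fits that leave out 1 mouse, the adjusted p of Htra1 in edgeR was 0.0935 to 0.417, and it was 1.00 without both c-204 mice.

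Pappa2, a metalloprotease that cuts Igfbp3 and Igfbp5, was at 21.8, 27.5, 21.1, 35.8 and 37.2 CPM in the ELA mice and 80.3, 61.8, 23.1 and 59.0 CPM in the control mice. The groups overlapped through c-202-1-1. Its log2 fold change was -0.96 (95% interval -1.64 to -0.28, unadjusted p = 0.00973, adjusted p = 0.526, edgeR), and -0.52 without both c-204 mice. Its unadjusted p in edgeR was then 0.172, and it was 0.0580 without both t-205 mice, so in these 2 fits Pappa2 was no longer among the genes lower at this p. Htra3, a relative of Htra1, averaged 27.7 ± 10.6 CPM in ELA (SD, n = 5) and 48.0 ± 8.60 CPM in controls (SD, n = 4), with a log2 fold change of -0.79 (unadjusted p = 0.00973, adjusted p = 0.526, edgeR). Igfbp1, the binding protein that liver makes in fasting, was near 0 in every library and was not tested. Igfbpl1, a gene for a related protein, was at 23.8 CPM in t-203-1-4 and at most 0.580 CPM in the other 8 mice, and is given after its values were seen. The same library held the most neuronal marker RNA, at a summed 638.5 CPM of 8 markers, against at most 107 CPM in any other mouse.

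**Figure D5:**
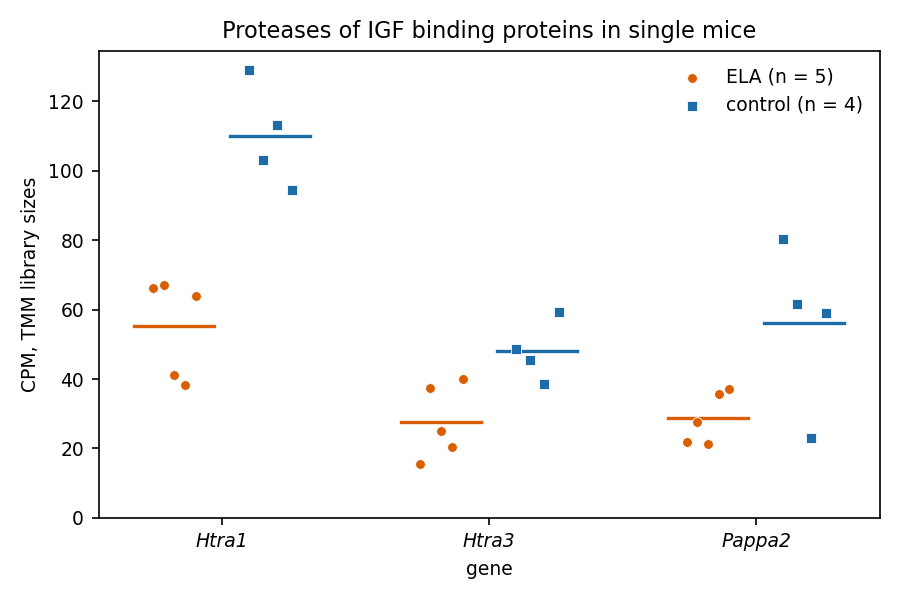
CPM of 3 genes for proteases of IGF binding proteins in single mice, with ELA mice (circles, n = 5) left of control mice (squares, n = 4) and a short line at each mean. Every ELA mouse is below every control mouse in Htra1, and the groups overlap in Htra3 and Pappa2.

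Htra1, Htra3 and Pappa2 are also made by mesenchymal cells, so the markers of those cells were set beside them. Of the 17 markers of dental mesenchyme and fibroblasts, 14 had a negative log2 fold change and 8 were lower in ELA at an unadjusted p below 0.05, beside 2.89% of all genes, with the summed ranges given above, a median log2 fold change of -0.48 and no marker at 0. Of the 7 osteoblast markers, 6 were negative and 3 lower at the unadjusted p, beside the same 2.89%, at a summed 1081 to 2002 CPM in ELA and 1786 to 2449 CPM in controls. Markers of B lymphocytes, erythroid cells and osteoclasts were negative as well. All 4 B lymphocyte markers were lower at the unadjusted p, 1 of them past the adjusted p, at a summed 4.29 to 11.8 CPM in ELA and 21.4 to 42.1 CPM in controls (median log2 fold change -2.22). All 5 erythroid markers were negative and 3 lower at the unadjusted p, at a summed 158 to 377 CPM in ELA and 363 to 857 CPM in controls (median -0.99). All 6 osteoclast markers tested were negative and 1 lower at the unadjusted p, at a summed 188 to 679.6 CPM in ELA and 404 to 697 CPM in controls (median -0.57). The part of any of these cells in the protease, ligand and binding protein levels was not tested. The secretory ameloblast markers ran the other way, with 4 of 4 positive and 3 higher at the unadjusted p, beside 3.56% of all genes, 1 of them past the adjusted p. The other epithelial lists did not move as a set. Of 8 maturation ameloblast markers 5 were positive (median 0.05), with 1 higher and 1 lower at the unadjusted p. Of 7 dental epithelium markers 4 were positive (median 0.10), with 0 lower and 1 higher, which also passed the adjusted p. Endothelial markers, which mark cells rich in Igfbp3 and Igfbp7, summed to 430.4 to 489 CPM in ELA and 425 to 543 CPM in controls, with 0 of 9 past the unadjusted p. Pericyte and smooth muscle markers, at 0 of 8, summed to 639.8 to 1057 CPM in ELA and 673 to 915 CPM in controls.

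Downstream of the receptors, 39 genes of insulin and IGF receptor signalling were listed and 37 tested. Of these, 29 had a positive log2 fold change (median 0.10, beside 52.6% positive and a median of 0.01 over all genes). At the unadjusted p 2 were higher, beside 3.56% of all genes, and 0 lower, beside 2.89%, and 0 passed the adjusted p in edgeR, DESeq2 or limma-voom. The 3 with the smallest p were Foxo6, a transcription factor of the FOXO family, Mtor, the kinase of growth control, and Tsc1, a brake on it. Foxo6 averaged 97.9 ± 25.8 CPM in ELA (SD, n = 5) and 64.5 ± 20.2 CPM in controls (SD, n = 4; unadjusted p = 0.0287, adjusted p = 0.682, edgeR). Mtor averaged 121 ± 24.4 CPM in ELA (SD, n = 5) and 86.9 ± 23.3 CPM in controls (SD, n = 4; unadjusted p = 0.0329, adjusted p = 0.700, edgeR). The groups overlapped in Mtor, which was highest in t-203-1-4, t-205-1-1 and c-204-1-1, at 159, 127 and 118 CPM. These were also the 3 mice with the highest values of the length measure above. Tsc1 averaged 38.1 ± 4.64 CPM in ELA (SD, n = 5) and 32.3 ± 2.00 CPM in controls (SD, n = 4; unadjusted p = 0.0752, adjusted p = 0.830, edgeR).

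FOXO target genes, which IGF signalling holds down, did not move one way, since 9 of the 16 tested were positive (median 0.06), beside 52.6% of all genes. At the unadjusted p 2 were higher, beside 3.56% of all genes, and 1 was lower, beside 2.89%, and 0 passed the adjusted p in edgeR, DESeq2 or limma-voom. Pdk4, a kinase that turns off pyruvate dehydrogenase in fasting, averaged 10.8 ± 1.31 CPM in ELA (SD, n = 5) and 15.3 ± 2.85 CPM in controls (SD, n = 4; unadjusted p = 0.0108, adjusted p = 0.536, edgeR). Sod2, the mitochondrial superoxide dismutase, averaged 135 ± 14.5 CPM in ELA (SD, n = 5) and 107 ± 9.70 CPM in controls (SD, n = 4; unadjusted p = 0.0167, adjusted p = 0.613, edgeR). Cited2, a transcriptional coregulator, averaged 126 ± 17.1 CPM in ELA (SD, n = 5) and 98.9 ± 11.2 CPM in controls (SD, n = 4; unadjusted p = 0.0240, adjusted p = 0.661, edgeR). With TMM library sizes every ELA mouse was above every control mouse in Sod2, beside 1.39% of all genes. With plain library totals the groups overlapped in Sod2 through t-205-1-1 and c-204-1-2. Pdk4 and Cited2 overlapped with TMM library sizes.

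Growth hormone acts upstream of Igf1, and of 9 genes of its receptor pathway 2 were positive (median -0.04), beside 52.6% of all genes. At the unadjusted p in edgeR 0 were higher, beside 3.56% of all genes, and 0 lower, beside 2.89%. None (0) passed the adjusted p in edgeR, DESeq2 or limma-voom. In a list this short, 0 calls is near those shares. Ghr, the growth hormone receptor, averaged 34.9 ± 4.18 CPM in ELA (SD, n = 5) and 42.3 ± 7.36 CPM in controls (SD, n = 4; unadjusted p = 0.0872, adjusted p = 0.843, edgeR). Cish, a feedback inhibitor induced by STAT5, had an unadjusted p of 0.235, and Stat5b, the main signal transducer, had one of 0.363. The 4 genes that sort mannose 6-phosphate proteins, which Igf2r also carries, were all negative (median -0.15), while 52.6% of all genes were positive. In edgeR 0 passed the unadjusted p, which is also near the same shares of all genes. None (0) passed the adjusted p in edgeR, DESeq2 or limma-voom. Their 3 smallest unadjusted p were 0.196 for M6pr, 0.359 for Gnptg and 0.387 for Nagpa.

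Igf2 belongs to a set of imprinted growth genes, of which 21 were listed and 19 tested, Igf2 included. Of these, 12 were positive (median 0.15, beside 52.6% positive over all genes). At the unadjusted p 3 were higher in edgeR, beside 3.56% of all genes, and 0 lower, beside 2.89%. In limma-voom 1 was higher, and in DESeq2, which gave a p for all 21, 4 were higher. None (0) passed the adjusted p in edgeR, DESeq2 or limma-voom. Beside Igf2, those higher in edgeR were Nnat, at 7.84 ± 7.93 CPM in ELA (SD, n = 5) and 2.57 ± 1.03 CPM in controls (SD, n = 4), and Rasgrf1, at 1.74 ± 1.68 CPM in ELA (SD, n = 5) and 0.496 ± 0.228 CPM in controls (SD, n = 4). Both are expressed in neurons and were highest in t-203-1-4, the library with the most neuronal marker RNA, and without it their unadjusted p in edgeR were 0.0635 and 0.100. H19, the maternally read noncoding RNA 72622 bases from Igf2, averaged 431 ± 175 CPM in ELA (SD, n = 5) and 278 ± 80.1 CPM in controls (SD, n = 4), with a log2 fold change of 0.63 (unadjusted p = 0.0647, adjusted p = 0.823, edgeR). The groups overlapped in H19. Its lowest and highest levels of all mice were both in ELA, at 192 CPM in t-205-1-1 and 677 CPM in t-205-1-3. H19 is no member and was named because of its place beside Igf2, after its values were seen. Of the mRNA-binding proteins of Igf2, Igf2bp3 was at 20.1 ± 3.00 CPM in ELA (SD, n = 5) and 14.6 ± 2.03 CPM in controls (SD, n = 4; unadjusted p = 0.0125, adjusted p = 0.564, edgeR), Igf2bp2 had an unadjusted p of 0.843, and Igf2bp1 was not tested.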

How the data were processed

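RNA of the first-molar enamel organs of 9 male pups at postnatal day 12 (5 ELA, 4 control) was sequenced, 1 library per mouse. The authors' deposited table holds raw read counts, as whole numbers, with a length for each Ensembl gene. The submitters' processing notes name CASAVA, HISAT and HISAT2 but no version of them. The counter, the build and the use of strand are not given in the sources read here. GENCODE M21 (GRCm38) lists 54495 of the 54532 identifiers, 53548 of them at the deposited coordinates, and positions are on that build. All columns of sample values were assigned to a mouse by name. Each mouse was a replicate. For qPCR, the organs in the paper came out of 2 litters in each group, with the same numbers of mice as here, and the titles have 2 openings per group. Whether an opening marks a litter is not stated. The p-values treat mice as independent, and littermates may not be. Pairs of libraries differed by more than sampling noise, so none was counted as a repeat.

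The deposited counts were tested with edgeR 4.0.16 in R 4.3.3 (filterByExpr with a count minimum of 10, TMM, glmQLFit with robust estimation, glmQLFTest). The adjusted p is the Benjamini-Hochberg value over 15909 genes, with a threshold of 0.05. CPM use TMM library sizes, log2 CPM a prior count of 2, and FPKM are CPM per kilobase of deposited gene length. Exact permutation tests used scipy 1.17.1. DESeq2 1.42.0, the tool the methods of the paper name, and limma-voom (limma 3.58.1) were alternatives, with other normalizations, count filters, mice left out singly or by title opening, and 2 alternatives chosen after seeing the data (offsets in 20 length classes; unshared exon bases of Igf2). The scripts were tested on simulated data. The 10 members and all lists were chosen with earlier results of these data known. Named are all members, the 3 genes of smallest p in each pathway list and the 3 nearest patterns of 4 members; exceptions are stated.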

Additional observations from a re-analysis of the deposited data

Results flagged for a closer look

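In 2 of the 20 groups of mice checked (10 members in each condition), the mouse at one end stood apart from the others in its group; chance alone gives about 1 such group in 20. Igf1r was at 608.7 CPM in ELA mouse t-205-1-1, while the next ELA mouse was at 285 CPM, and this gap was 0.742 of the range of the group. Igfbp6 was at 6.66 CPM in control mouse c-202-1-2, while the next control mouse was at 4.90 CPM, a gap of 0.871 of the range that rests on 139 counts.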

How the results depend on the processing

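No paired analysis was possible because the openings of the titles are nested within ELA and control and the replicate numbers only name mice. No member passed the adjusted p in any of the 24 alternatives. Igf2 was higher in ELA at an unadjusted p below 0.05 in 24 of 24, Igfbp2 in 23 and Igfbp3 in 14. The adjusted p ran from 0.0799 to 1.00 for Igf2, 0.216 to 1.00 for Igfbp2 and 0.458 to 1.00 for Igfbp3. Without the c-204 mice, 1 member passed the unadjusted p in place of 3, and that of Igfbp2 in edgeR was 0.132. With counts summed per title opening, the unadjusted p in edgeR were 0.00581 for Igf2, 0.0150 for Igfbp2 and 0.110 for Igfbp3. With 1 mouse left out, 2 to 3 members passed it. The log2 fold change then ran from 0.60 to 0.76 for Igf2, 0.44 to 0.63 for Igfbp2, 0.25 to 0.38 for Igfbp3, -0.068 to 0.23 for Igf1, -0.65 to 0.13 for Igf1r, -0.011 to 0.29 for Igf2r, -0.063 to 0.16 for Igfbp4, -0.044 to 0.070 for Igfbp5, 0.07 to 0.37 for Igfbp6 and -0.22 to 0.015 for Igfbp7.

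Igf1r was lower at an unadjusted p of 0.0491 in edgeR without the t-205 mice, at -0.75. Signs turned in the 7 members that did not pass the unadjusted p with all mice. Without the t-205 mice, the log2 fold changes were -0.021 for Igf1, -0.0054 for Igf2r and 0.0043 for Igfbp7. Without the t-203 mice they were 0.27 for Igf1r, -0.063 for Igfbp4, -0.13 for Igfbp5 and -0.013 for Igfbp6. Without the c-204 mice they were 0.16 for Igf1r, -0.027 for Igfbp4 and -0.015 for Igfbp5, and without the c-202 mice Igf1 was at -0.15. Igfbp5 was at -0.0012 with upper-quartile factors, -0.040 with plain library totals, -0.011 with length offsets and -0.0036 with counts summed per title opening. The cause was not tested. Over all genes, the 10 calls became 138 in DESeq2, 4 with plain totals, 38 with no count filter, 6 with length offsets and 3 with summed counts. They became 59 without the t-205 mice, 4 without the t-203 mice, 0 without the c-204 mice, 1 without the c-202 mice, and 0 to 25 with 1 mouse left out. With CPM in place of FPKM, the order of levels changed. Imprinted genes higher at the unadjusted p numbered 1 in limma-voom, 3 in edgeR and 4 in DESeq2.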
